A study of Mus musculus with 15 samples.

Results

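The hearts of B6C3F1 mice were compared with the hearts of C3H mice, the strain that gives this hybrid its father. The comparison takes the 5 arrays labelled B6C3F1 and the 5 labelled C3H, which are 10 of the 15 arrays of the series, and was drawn by the labelled strain alone. C3H (C3H/HeJ) is an inbred strain, and B6C3F1 (B6C3F1/J) is the first generation of the cross between it and C57Bl/6 (C57BL/6J), whose 5 arrays are shown beside the others and share the estimate of the spread. All groups were male mice of 9 to 10 weeks, 1 mouse an array. They were housed singly on a light and dark cycle, had a radiotelemetry transmitter placed in the abdomen under tribromoethanol anaesthesia at 7 weeks, were killed with CO2 and had no other treatment. Every group thus carries the operation, and no group without it was analysed here. From 10 to 18 mg of the heart apex, 50 ng of total RNA were amplified in a 2-cycle reaction and read on an Affymetrix array with 45032 probe sets besides its controls. The sources used here do not give the hour of collection.

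A first-generation hybrid carries 1 copy of each autosomal gene from each parent. In the usual naming of mouse crosses the mother is written first, so that a male B6C3F1 mouse has the X chromosome of a C57Bl/6 mother and the Y chromosome of a C3H father. The apex is mostly ventricular muscle, a tissue that lives on fatty acids and keeps its own circadian clock, with endothelial cells, fibroblasts, mural cells and macrophages between the muscle fibres. C3H mice are known to mineralise the heart muscle with age. The tissue label was checked against its markers: in B6C3F1 the means of all 10 cardiomyocyte genes looked up, Myh6 and Tnnt2 among them, lay between 14.40 and 16.19 on the scale used below, far above the median of 6.19 of all probe set means.

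Signals are given as log2(signal + 16), on which 1 unit is a doubling for bright genes and more than a doubling for dim ones. A level belongs to its own probe set, and levels of different genes are not set against each other. Differences are B6C3F1 minus C3H, with the standard error (SE) of limma's fit over all probe sets and a p adjusted by Benjamini-Hochberg over all 45032. A gene is read from its brightest probe set, and passed at an adjusted p under 0.05.

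B6C3F1 and C3H hearts differed in 594 of 18190 genes, which is 3.27% of them: 351 were higher in B6C3F1 (1.93%) and 243 were lower (1.34%). Of all probe sets, 1069 passed, or 2.37%. The rises were the larger changes, with 122 genes at least 2-fold higher against 43 at least 2-fold lower, and 8 at least 8-fold higher against 0. The 5 arrays of one group lay wholly apart from the 5 of the other in 889 genes (4.89%), and in 482 of the 594 that passed. The median difference over all genes was 0.04 with a median SE of 0.23. Beside the means of the parents, the B6C3F1 mean lay between them in 384 of the 594 genes, above both in 104 and below both in 106. Centring each array on its median turned the balance: 186 genes were then higher and 272 lower, so that the share of higher calls went from 59.1% to 40.6%, while the median of all probe sets moved from 0.04 to -0.03.

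**Figure D1:**
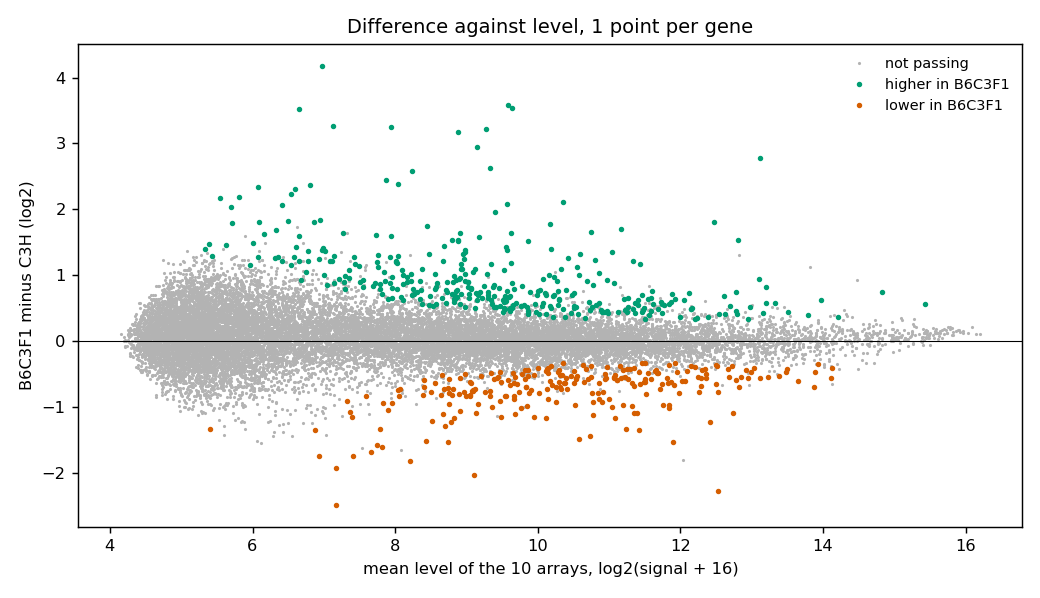
Difference between B6C3F1 and C3H (vertical axis, log2) against the mean level of the 10 arrays (horizontal axis, log2(signal + 16)), 1 point per gene. The 351 genes higher in B6C3F1 are green and the 243 lower are orange; the largest rise is Ang at 4.18 and the largest fall Lrrc10b at -2.49.

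The C3H arrays varied more than the B6C3F1 arrays. On the first principal component of the 10 arrays, with 27.4% of the variance, B6C3F1 ran from -32.57 to -20.08 and C3H from 6.90 to 44.16, with C3H replicate 5 nearest to the hybrids. Poly-A control RNA, added at labelling, read 8.64 to 8.97 on the B6C3F1 arrays and 9.05 to 10.52 on the C3H arrays, where replicate 4 stood apart at 10.52. The groups did not overlap (exact two-sided permutation p = 0.00794, the lowest possible with 5 arrays a group, and 0.135 once adjusted over 17 measures). With this control signal as a covariate 326 genes passed, and without C3H replicate 5, with no covariate, it was 816. Of the 63 genes that passed and are named by the rule, 17 lost the call with the covariate, at adjusted p-values of 0.068 to 0.433 in limma's fit: H2-DMa, Gbp6, Npas2, Ciart, Acot1, Ucp3, Cpt2, Sdhc, Klf9, Gstm2, Jund, Tbx3, Slc8a1, Fhl1, Col15a1, Col4a1 and Septin6. Of the 42 such genes with further probe sets, 14 had one that also passed in the same direction and 28 had none. The strains were numbered in separate blocks in the labels, so that handling order and strain cannot be told apart.

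The 10 largest rises and the 10 largest falls were taken from genes that passed and whose B6C3F1 and C3H arrays did not overlap. That their groups lie apart was thus fixed by the choice and is no further result. The largest rise was that of Ang, which encodes angiogenin, a secreted ribonuclease that promotes vessel growth. Its level was 9.13, 9.40, 8.78, 9.21 and 8.78 on the B6C3F1 arrays and 4.15, 6.04, 5.00, 4.75 and 4.50 on the C3H arrays. All hybrids lay above all C3H mice, whose values were close to the lowest on the array, and the difference was 4.18 (SE 0.25, adjusted p = 9.73e-11). A further Ang probe set gave 2.44 (adjusted p = 4.28e-07) and another 1.37 (adjusted p = 0.0536). C57Bl/6 hearts had a mean of 10.14.

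Efhd2, which encodes a calcium-binding actin-bundling protein, read 11.31, 11.31, 11.37, 11.29 and 11.61 in B6C3F1 and 7.99, 7.78, 8.07, 7.81 and 7.32 in C3H. The groups were far apart, and the hybrids lay close together apart from replicate 5 at the top. The difference was 3.58 (SE 0.12, adjusted p = 2.51e-15), the smallest p of the named genes. A dimmer probe set of the gene gave 0.23 (adjusted p = 0.714).

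Tnni3k encodes a kinase of heart muscle that binds cardiac troponin I and whose level is known to differ between inbred strains. It read 10.62, 10.43, 10.38, 10.65 and 10.28 in B6C3F1 and 6.71, 7.64, 7.02, 7.54 and 7.62 in C3H. Every hybrid stood above every C3H mouse, 9-fold on average (difference 3.17, SE 0.15, adjusted p = 1.77e-12). C57Bl/6 hearts read 11.82, 11.52, 11.52, 11.73 and 11.47, above all hybrids. On the linear scale the hybrid signal was 45.2% of the C57Bl/6 signal. A further probe set of the gene gave -0.27 (adjusted p = 0.405), and whether both sets read the same transcripts was not tested.

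Hsd17b7 encodes an enzyme of cholesterol synthesis that also reduces oestrone. It read 10.31, 10.66, 10.74, 10.59 and 10.83 in B6C3F1, 7.82, 8.06, 7.66, 7.69 and 7.16 in C3H and 10.64, 10.67, 10.62, 10.59 and 10.71 in C57Bl/6. The hybrid and C57Bl/6 ranges overlapped and C3H lay below both, with a difference of 2.95 (SE 0.14, adjusted p = 1.08e-12). The linear signal of the hybrids was 99.2% of that of C57Bl/6, the highest share among the 10 largest rises, against 46.6% for Ang and 49.5% for Efhd2. Other probe sets of Hsd17b7 gave 2.57, 2.28 and 1.18, the last with an adjusted p of 0.136.

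Pttg1 encodes securin, which holds sister chromatids together until anaphase. It read 14.41, 14.73, 14.63, 14.57 and 14.20 in B6C3F1 and 11.78, 11.16, 11.52, 12.00 and 12.16 in C3H. The groups did not overlap, and the difference was 2.79 (SE 0.15, adjusted p = 9.21e-12). Another probe set gave 2.78, and a dim one gave -0.12 (adjusted p = 0.948), the value left when sets that can match several transcripts are dropped.

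The other members of the 10 largest rises were Nxpe4 (3.53), Gm26782 (3.27), 2210407C18Rik (3.25) and the histocompatibility genes H2-K1 and H2-D1, described below. In each of the 10 the C3H arrays lay below the hybrids, as the choice of these genes required. The C3H means of Ang, Nxpe4 and Gm26782 were under the median of all probe sets, where the added 16 shrinks a difference most. Over the 10 genes the hybrid linear signal was 33.4% to 99.2% of the C57Bl/6 signal, with a median of 48.1%, and 64.8% to 177% of the mean of both parents, with a median of 93.6%. The 11th gene in this order was Copz2 at 2.62, just after Pttg1.

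The falls were smaller and named other kinds of genes. Lrrc10b, a leucine-rich repeat gene, fell most: it read 6.50, 5.33, 6.94, 5.26 and 5.63 in B6C3F1 and 9.62, 7.92, 8.31, 9.04 and 7.20 in C3H. The C3H values spread widely, and the lowest of them was still above the highest hybrid (difference -2.49, SE 0.45, adjusted p = 0.00176). C57Bl/6 hearts had a mean of 5.91, close to the hybrid mean of 5.93.

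Slc25a29 encodes the mitochondrial carrier of basic amino acids. It read 11.32, 11.21, 11.28, 11.04 and 10.79 in B6C3F1, 12.62, 12.39, 12.59, 13.35 and 12.36 in C3H and 9.37, 9.34, 8.87, 9.26 and 8.81 in C57Bl/6. The 3 kinds of mice formed separate bands with the hybrids in the middle, and against C3H the difference was -1.54 (SE 0.16, adjusted p = 1.27e-06). All 4 other probe sets of the gene passed and were lower, from -1.49 to -0.81.

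Cacng6, an auxiliary subunit of voltage-gated calcium channels, read 6.85, 6.91, 7.01, 7.12 and 6.88 in B6C3F1 and 8.72, 8.33, 8.85, 8.69 and 8.05 in C3H. The hybrids lay in a narrow band under all C3H arrays, with a difference of -1.58 (SE 0.24, adjusted p = 0.000232). Ttr, the carrier of thyroxine and retinol, fell by 1.75. Lpar3, a receptor of lysophosphatidic acid, fell by 1.75, and Nme7, of the nucleoside diphosphate kinase family, fell by 1.54. The clock genes Dbp and Ciart and the X-linked genes Fam122b and Rtl3 complete the 10 and are described below. Over the 10 the hybrid linear signal was 13.4% to 34.1% of the C3H signal, with a median of 26.9%. Lgals3 came next at -1.52, just after Slc25a29.

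**Figure D2:**
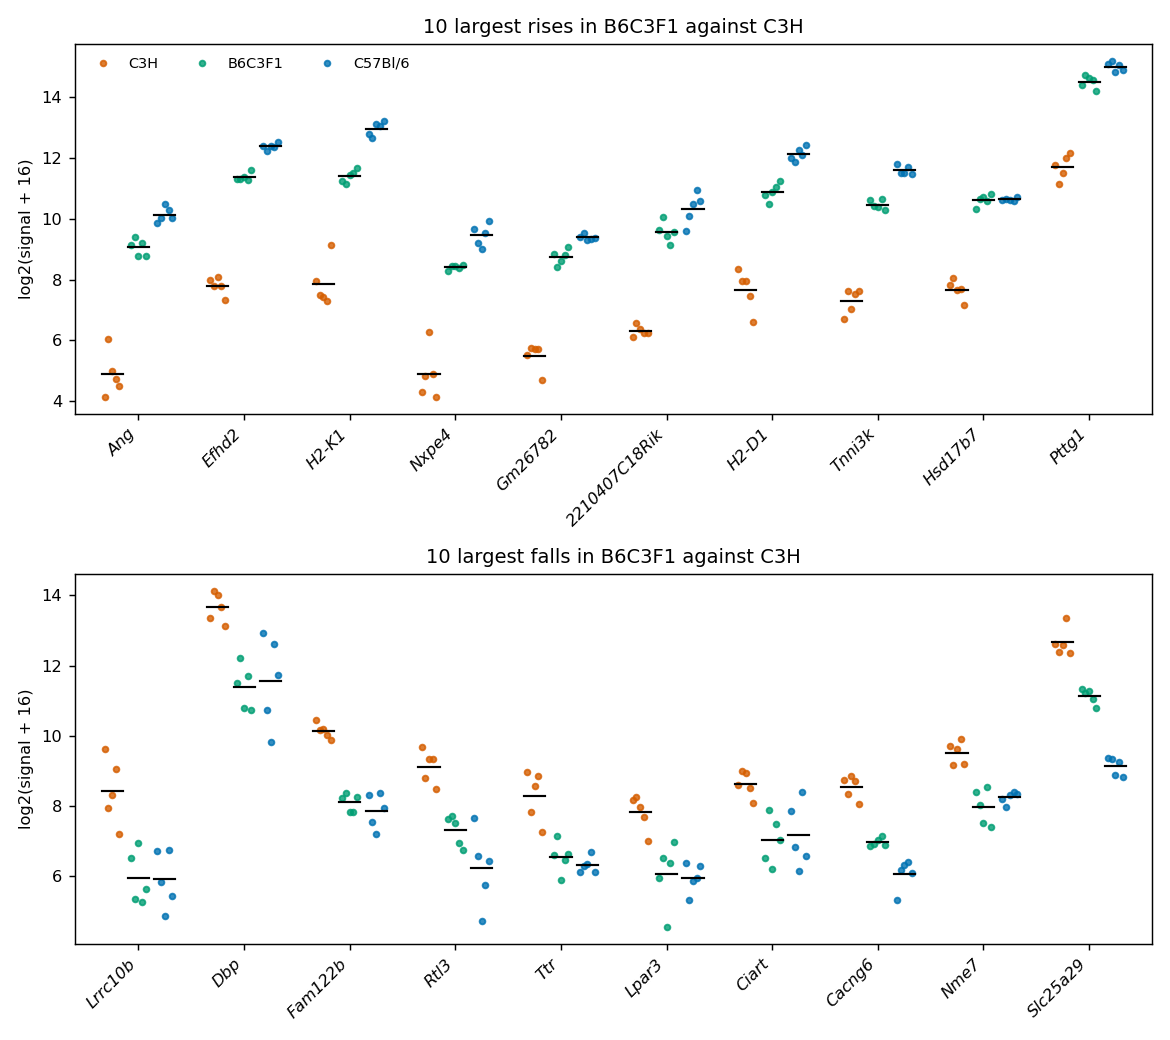
Level of the 10 genes with the largest rise (top) and the 10 with the largest fall (bottom) in B6C3F1 against C3H, in log2(signal + 16). Points are arrays, 5 a strain, bars are group means. The genes were chosen so that the green B6C3F1 points and the orange C3H points do not overlap, and Slc25a29 shows the hybrids between both parents.

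Part of the genes of antigen presentation were higher in the hybrids. Class I molecules (H2-K1, H2-D1) display peptides from inside the cell on most cell types, and class II molecules (H2-Aa, H2-Ab1, H2-Eb1) display taken-up peptides on macrophages, dendritic cells and B cells. The strains carry different variants of these genes, k in C3H and b in C57Bl/6. Of 22 genes on the array, 7 were higher in B6C3F1 (31.8%, against 1.93% of all genes), 0 were lower and 15 did not pass, with a median difference of 0.24 against 0.04 over all genes.

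H2-K1 read 11.26, 11.14, 11.44, 11.50 and 11.68 in B6C3F1 and 7.95, 7.50, 7.42, 7.31 and 9.15 in C3H. C3H replicate 5 stood above the other C3H mice, and all of them lay below the hybrids (difference 3.54, SE 0.23, adjusted p = 3.99e-10). H2-D1 read 10.79, 10.48, 10.89, 11.04 and 11.25 in B6C3F1 and 8.37, 7.96, 7.95, 7.46 and 6.61 in C3H, again without overlap (difference 3.22, SE 0.22, adjusted p = 7.64e-10). Probe sets of one class I gene gave unlike answers. For H2-D1 one set gave 4.01 and another passed in the opposite direction at -0.92 (adjusted p = 0.00382), with C57Bl/6 lowest. For H2-K1 the other sets gave 2.74, 0.65 and 0.01. The opposite set of H2-D1 was bright, with means of 10.425 in B6C3F1, 11.341 in C3H and 6.537 in C57Bl/6. The other sets of the gene ran from -0.92 to 4.01. These are families of near-identical genes and variants, so that the size of a class I difference is uncertain here. For H2-D1 its direction is uncertain as well.

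H2-Aa, a class II chain, read 11.07, 10.86, 11.14, 11.18 and 10.15 in B6C3F1 and 8.91, 9.79, 9.71, 8.75 and 10.28 in C3H. The lowest hybrid, replicate 5, fell under the highest C3H mouse, also replicate 5, so that the groups overlapped although the gene passed (1.39, SE 0.22, adjusted p = 0.000492). Other sets of H2-Aa gave unlike answers too, at 1.52 (adjusted p = 0.0102), 0.875 (adjusted p = 0.34) and 0.02 (adjusted p = 0.99). H2-Eb1 rose by 1.01 (adjusted p = 0.000965) and H2-DMa, which helps load class II peptides, by 0.94 (adjusted p = 0.0482). H2-DMa lost its call in 23 of 33 alternatives, among them leaving out any 1 array other than C3H replicate 5 or C57Bl/6 replicate 1 (adjusted p = 0.0514 to 0.129 in limma's fit). H2-Ab1 and the class I-like gene H2-M3 were the other members that passed. H2-Ea, silent in C57Bl/6 mice through a known deletion, read 6.87 ± 0.66 in B6C3F1 and 7.0 ± 0.72 in C3H (SD, n = 5 each), a difference of -0.13 (adjusted p = 0.944). Its C57Bl/6 mean was 7.09, so that this probe set did not separate the strains. The peptide transporter and proteasome genes Tap1, Tap2, Psmb8 and Psmb9 gave 0.35, -0.06, 0.51 and 0.12 and did not pass, nor did the class II invariant chain Cd74 at 0.61. With probe sets open to several transcripts left out 3 members rose, and with the poly-A covariate 4 did.

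Of 40 interferon-stimulated genes 2 rose and 1 fell (7.5%, against 3.27% of all genes), with a median of 0.07. Cxcl9, a chemokine that draws T cells, rose by 2.33 from a low level (SE 0.36, adjusted p = 0.00027). Trim30a rose by 0.97 (adjusted p = 0.00574), and the guanylate-binding protein gene Gbp6 fell by 0.98 (adjusted p = 0.0271). A further set of Cxcl9 gave 0.99 and one of Trim30a 0.28, and neither passed. Gbp6 did not pass with the poly-A covariate or when any 1 of B6C3F1 replicates 1 to 4 or of C3H replicates 1, 3 and 4 was left out (adjusted p = 0.0541 to 0.0992 in limma's fit for the single arrays).

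Circadian clock genes held the highest share of calls of any list looked up. In the clock, the proteins of Arntl (BMAL1) with Clock or Npas2 bind E-boxes and switch on their target genes. The products of Per and Cry genes and of Ciart hold this activity back, and Nr1d1 and Nr1d2 repress Arntl. Dbp, Tef and Hlf encode output factors that bind D-boxes and peak at another time of day than Arntl. Of the 23 clock and output genes on the array 10 fell, 2 rose and 11 did not pass, with a median of -0.20. That is 52.2% of them, where 3.27% of all genes passed.

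The E-box searched was CACGTG and the D-box TTATGTAA or TTATGCAA, each on both strands, in the 250 bases before a gene's start in the RefSeq promoter table of build GRCm38.p6. An E-box stood in 6.02% of all 32851 windows and a D-box in 1.5%. Windows were found for 19 of the 24 listed clock genes, 28 windows in all, and 7 windows of 6 genes (Bhlhe41, Ciart, Cry1, Per1, Tef and Tspan4) held an E-box, and 2 windows (Per1 and Per3) a D-box. No overlap between the motifs was seen in the windows printed. Tspan4, which also fell, holds an E-box at -51 in a window not printed, and a further window of Tef holds one at -138. Windows of Ciart, Tef and Per3 are shown as examples of genes that fell and carry the motifs, which stand in capitals: 3 E-boxes in Ciart (chr3:95882229-95882478, minus strand), 1 in Tef (chr15:81802423-81802672, plus strand) and 2 D-boxes in Per3 (chr4:151044666-151044915, minus strand).
Ciart: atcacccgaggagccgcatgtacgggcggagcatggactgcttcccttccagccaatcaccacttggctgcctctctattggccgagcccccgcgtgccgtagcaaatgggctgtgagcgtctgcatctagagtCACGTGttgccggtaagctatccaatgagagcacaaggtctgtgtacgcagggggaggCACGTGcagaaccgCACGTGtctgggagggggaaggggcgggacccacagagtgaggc
Tef: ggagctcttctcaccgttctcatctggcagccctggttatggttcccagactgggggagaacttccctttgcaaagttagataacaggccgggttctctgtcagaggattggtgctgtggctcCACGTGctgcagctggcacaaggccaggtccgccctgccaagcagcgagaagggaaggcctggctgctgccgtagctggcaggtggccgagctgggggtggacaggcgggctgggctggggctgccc
Per3: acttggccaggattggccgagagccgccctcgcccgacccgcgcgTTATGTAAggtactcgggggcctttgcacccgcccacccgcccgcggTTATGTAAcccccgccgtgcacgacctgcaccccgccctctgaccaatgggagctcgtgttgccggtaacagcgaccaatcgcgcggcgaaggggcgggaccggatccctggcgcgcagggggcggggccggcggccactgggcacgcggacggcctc
In Ciart the E-boxes began at positions -116, -58 and -44 from the start. A match is a description of the letters: Per1 holds both motifs and did not pass (-0.05, adjusted p = 0.975), and Bhlhe41 and Cry1 hold an E-box and did not pass (0.08 and -0.15), while the window of Dbp holds neither.

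Of the activators, Arntl rose. It read 9.85, 9.47, 9.72, 9.36 and 9.43 in B6C3F1 and 7.87, 8.0, 7.59, 8.0 and 8.71 in C3H. The lowest hybrid lay above the highest C3H mouse, replicate 5, and the difference was 1.53 (SE 0.27, adjusted p = 0.00124). Its partner Npas2 rose by 1.15 (adjusted p = 0.0499), at the edge of the threshold, and Clock gave 0.39 (adjusted p = 0.105). Npas2 lost its call in 22 of 33 alternatives, among them leaving out any 1 of B6C3F1 replicates 1, 2, 4 and 5, C3H replicates 1, 3, 4 and 5 or C57Bl/6 replicates 1, 2, 3 and 5 (adjusted p = 0.0526 to 0.146 in limma's fit), and its further set gave -0.66 (adjusted p = 0.509). A dim further set of Arntl gave 0.20 (adjusted p = 0.925).

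Of the repressors, Ciart fell most. It read 6.50, 7.87, 6.19, 7.47 and 7.01 in B6C3F1 and 8.58, 9.00, 8.93, 8.51 and 8.08 in C3H. The hybrids covered a wide range, all of it below C3H, with a difference of -1.61 (SE 0.36, adjusted p = 0.0133). Without B6C3F1 replicate 3 the adjusted p of Ciart was 0.0516. Per3 read 6.92, 6.41, 6.93, 6.95 and 6.97 in B6C3F1 and 8.42, 7.90, 8.09, 7.80 and 7.35 in C3H. Here the hybrids were tight, all below C3H (difference -1.08, SE 0.25, adjusted p = 0.0164). Cry2 was also lower, with Per1, Per2, Cry1 and Nr1d1 between -0.18 and 0.06 and not passing. Nr1d2 gave -0.67 (adjusted p = 0.0868), with no overlap of the arrays.

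Of the outputs, Dbp fell most and was the largest change of the list. It read 11.50, 12.21, 10.79, 11.70 and 10.73 in B6C3F1 and 13.36, 14.13, 14.01, 13.68 and 13.12 in C3H. Every C3H heart was above every hybrid heart, 4.84-fold on average (difference -2.28, SE 0.41, adjusted p = 0.00173), and a further set gave -1.82 (adjusted p = 0.00797). Wee1, a kinase that delays mitosis and follows the clock, read 8.66, 9.28, 8.88, 9.27 and 9.51 in B6C3F1 and 10.59, 9.89, 10.32, 10.44 and 9.90 in C3H, again apart (difference -1.11, SE 0.16, adjusted p = 0.000152), while a dimmer set of Wee1 gave -0.20 (adjusted p = 0.818). Tspan4 fell by 0.98 (adjusted p = 0.000129). The output factors Hlf and Tef, the deubiquitinase Usp2 and the clock kinase gene Csnk1e were lower too, while Nfil3, which opposes the D-box factors, and Csnk1d did not pass (0.24 and -0.01).

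The C57Bl/6 mice were not uniform in these genes. Their Dbp levels were 12.92, 10.72, 9.82, 12.62 and 11.74 and their Arntl levels 8.33, 9.85, 9.62, 8.05 and 9.23. Replicates 1 and 4 had the highest Dbp and the lowest Arntl of that group, so that C57Bl/6 spanned much of the distance between the other strains. Averaged over the 23 genes, the difference of an array from each gene's mean was -0.32 to 0.00 in B6C3F1, 0.03 to 0.29 in C3H and -0.31 to 0.19 in C57Bl/6, and C3H replicate 5 was the C3H array nearest to the hybrids. The falling members numbered 7 to 11 when 1 array was left out, 5 without the intensity trend and 4 with the poly-A covariate. As the hour of collection of each strain is unknown here, hour and strain cannot be told apart.

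**Figure D3:**
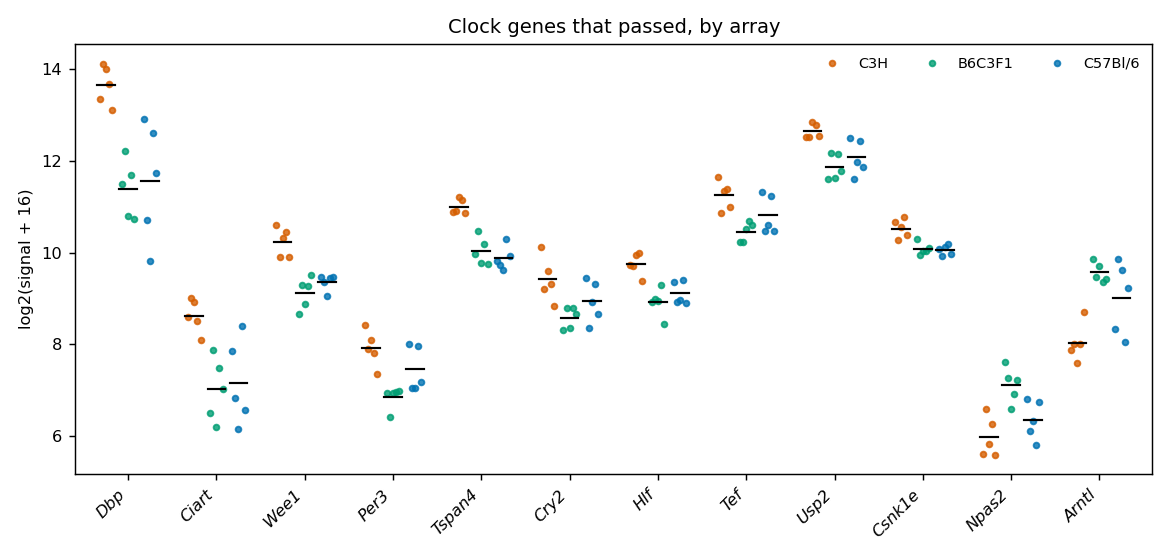
Level of the 12 clock and output genes that passed, in log2(signal + 16); points are arrays, 5 a strain, bars are group means. C3H (orange) lies above B6C3F1 (green) in the 10 genes from Dbp to Csnk1e and below it in Npas2 and Arntl, and C57Bl/6 (blue) spans a wide range in Dbp, from 9.82 to 12.92.

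Of 32 genes of fatty acid use 5 rose and 0 fell, which is 15.6% of them against 3.27% of all genes, with a median of 0.12. Pdk4, the kinase that shuts off pyruvate dehydrogenase and so spares glucose, read 13.82, 13.45, 13.43, 13.40 and 13.81 in B6C3F1 and 11.62, 12.46, 11.96, 11.32 and 12.86 in C3H. The highest C3H heart, replicate 5, lay below the lowest hybrid, and the difference was 1.54 (SE 0.23, adjusted p = 0.000253). Angptl4, a secreted inhibitor of lipoprotein lipase, rose by 1.30 (adjusted p = 0.00168), the acyl-CoA thioesterase Acot1 by 0.88 (adjusted p = 0.0102), the mitochondrial carrier Ucp3 by 0.76 (adjusted p = 0.0222) and the carnitine enzyme Cpt2 by 0.44 (adjusted p = 0.0313). Ppara, the gene of PPAR-alpha, gave -0.53 (adjusted p = 0.118) and did not pass. The oxidation enzymes Acadm, Acadl, Acadvl and Hadha gave 0.11, 0.06, 0.05 and -0.02 and did not pass. Ucp3 lost its call without B6C3F1 replicate 1 or 5 or C3H replicate 4 (adjusted p = 0.0555 to 0.0852 in limma's fit), and Cpt2 without any 1 of B6C3F1 replicates 1 to 4 or C3H replicates 1, 3 and 4 (0.0657 to 0.103). Further sets of Angptl4 and Cpt2 gave 0.74 and -0.04 and did not pass. With the poly-A covariate or without the intensity trend 2 members rose.

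Of 24 genes of glucose use Pdk2, a sister kinase of Pdk4, rose by 0.68 (adjusted p = 0.00105) and 23 did not pass (4.17% called, near the 3.27% of all genes), among them the glucose transporter Slc2a4 at -0.15 and the hexokinase Hk2 at -0.03. Of 44 nuclear genes of the respiratory chain, 1 passed: Sdhc, an anchor of succinate dehydrogenase, which fell by 0.48 (SE 0.11, adjusted p = 0.0139). That is 2.27% of the list, near the share of all genes, with a median of 0.09, and without B6C3F1 replicate 2 the adjusted p of Sdhc was 0.0547. Nnt, the mitochondrial transhydrogenase known to be deleted in part in C57BL/6J, gave -0.03 (adjusted p = 0.962), with a C57Bl/6 mean of 14.19 beside 14.17 in B6C3F1 and 14.20 in C3H, so that this set did not separate the strains. Of 20 cholesterol genes 10.0% passed: Hsd17b7 rose and Srebf1, a regulator of lipid synthesis, fell by 1.13 (SE 0.20, adjusted p = 0.00153), with C3H replicate 5 at 10.41 below the other C3H arrays. In haem synthesis Ppox rose by 0.92 (adjusted p = 0.00249), its further sets gave -0.11 and -0.27 without passing, and 12 of 13 members did not pass (7.69% called). Of 21 genes known for inherited differences between inbred strains 1 rose and 1 fell (9.52%, against 3.27% of all genes). Wdfy1 fell by 1.02 (adjusted p = 0.00116), with means of 9.263 in B6C3F1, 10.280 in C3H and 7.358 in C57Bl/6. Its other sets gave -0.78 to -0.30 and did not pass.

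Of 21 genes that answer to glucocorticoids 3 rose (14.3%, against 3.27% of all genes): Angptl4, the stress-induced gene Ddit4 (1.01, adjusted p = 0.00404) and Klf9 (0.58, adjusted p = 0.0302). Fkbp5 and Tsc22d3, both strongly induced by the hormone, gave -0.42 and -0.11 and did not pass, and other Klf9 sets gave from -0.26 to 0.92. Klf9 lost its call without B6C3F1 replicate 2 or 5 or C3H replicate 1, 2, 4 or 5 (adjusted p = 0.0559 to 0.0954 in limma's fit). Of 30 antioxidant genes 10.0% passed: Me1 rose by 0.49 (adjusted p = 0.00109), the extracellular peroxidase Gpx3 fell by 0.55 (adjusted p = 0.000536) and Gstm2 fell by 0.44 (adjusted p = 0.041). Gstm2 lost its call in 16 of 33 alternatives, among them leaving out B6C3F1 replicate 2, 3, 4 or 5, C3H replicate 1, 3 or 4 or C57Bl/6 replicate 3 or 5 (adjusted p = 0.0517 to 0.124 in limma's fit). Of 32 heat shock genes 0 passed in limma's fit, with a median of 0.21, and 12 had an unadjusted p under 0.05. Of 15 complement genes 0 passed, and 3 did so before adjustment. The share of all genes with such an unadjusted p was not counted here, so that nothing is read from these numbers. Of 22 immediate-early genes 1 passed (4.55%, near the share of all genes): Jund fell by 0.57 (adjusted p = 0.0196). Without B6C3F1 replicate 1 or 3 or C3H replicate 1 or 2 Jund had an adjusted p of 0.0501 to 0.0735 in limma's fit.

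**Figure D4:**
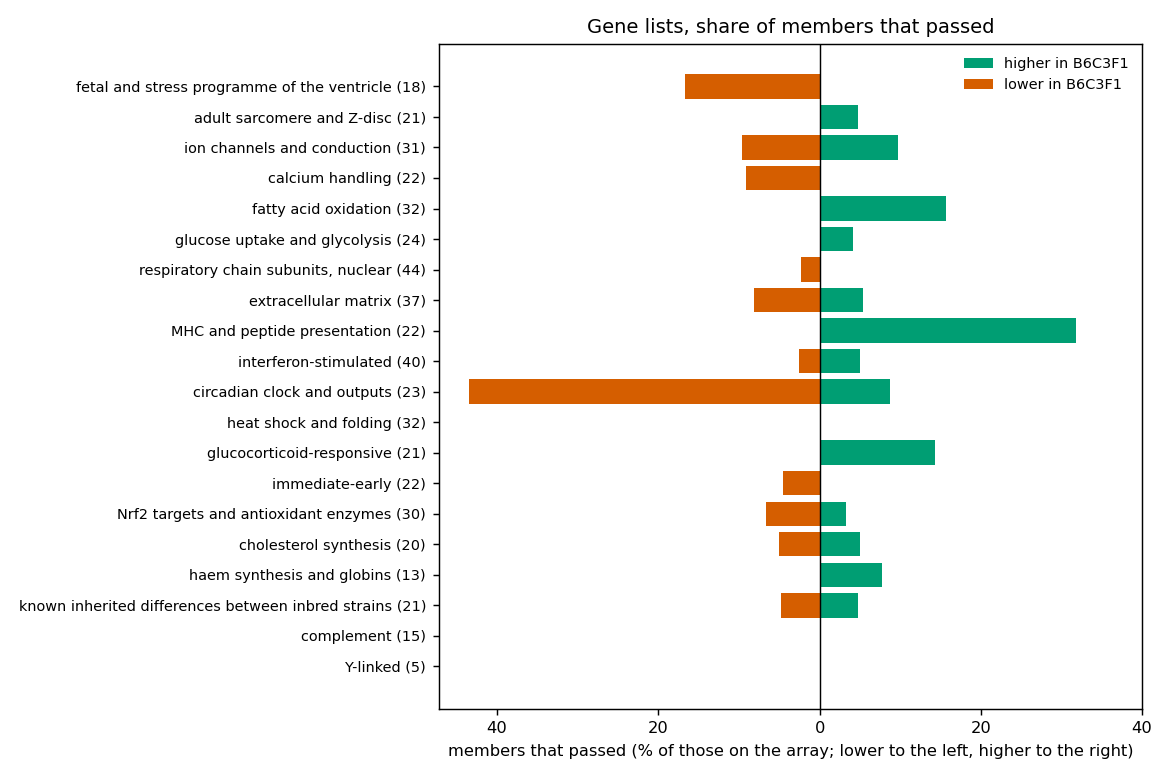
Share of the members of each gene list that passed between B6C3F1 and C3H (horizontal axis, percent of members on the array, number in brackets); green bars to the right are higher in B6C3F1 and orange bars to the left are lower. The clock list has 10 of 23 members lower and 2 higher, and the list of antigen presentation has 7 of 22 higher and 0 lower.

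Ion channel genes changed in both directions. Of 31 genes of channels and conduction 3 rose and 3 fell (19.4% called, against 3.27% of all genes), with a median of -0.10. Cacna1h, the pore of a T-type calcium channel, read 6.64, 6.86, 6.83, 6.48 and 6.74 in B6C3F1 and 4.29, 5.58, 5.10, 4.15 and 4.26 in C3H. The hybrids were tight and the C3H hearts lay near the lowest values of the array (2.03, SE 0.33, adjusted p = 0.000536), and a further dim set gave 0.12. Kcnj14, an inward rectifier potassium channel, read 10.00, 9.65, 9.74, 9.85 and 9.89 in B6C3F1, 11.43, 10.94, 11.30, 11.45 and 11.49 in C3H and 4.87, 6.36, 6.20, 5.89 and 6.01 in C57Bl/6. The 3 groups were apart, with the hybrids much nearer to C3H on the log scale and at 68.5% of the mean of both parents on the linear scale (difference -1.50, SE 0.20, adjusted p = 4.82e-05).

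Kcnj3, a subunit of the acetylcholine-gated potassium channel, rose by 0.79 (SE 0.14, adjusted p = 0.00106) in its brightest set, while its 3 other sets gave 0.09 to 0.16 and did not pass. Kcnj11, the pore of the ATP-sensitive channel, rose by 0.52 (adjusted p = 0.0105), with a further set at 0.31 that did not pass. The conduction system factor Tbx3 fell by 0.91 (adjusted p = 0.0385), with B6C3F1 replicate 3 lowest at 6.24, and Irx3, which is active in the Purkinje fibres, was also lower. Tbx3 lost its call when any 1 B6C3F1 array or C3H replicate 1, 3 or 4 was left out (adjusted p = 0.051 to 0.145 in limma's fit), and its 4 other sets gave -0.93 to 0.29 without passing. The lower calls numbered 6 without C3H replicate 5 and 1 with the poly-A covariate. Channel genes of the working muscle gave -0.42 for Cacna1c, 0.05 for Kcnq1, -0.12 for Kcnip2 and 0.32 for Gja1, and did not pass.

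Of 22 genes of calcium handling 2 were lower and 0 higher (9.09% called, against 3.27% of all genes). With the poly-A covariate 1 was lower, or 0 when C3H replicate 4 was left out as well. Itpr2, the inositol trisphosphate receptor of heart muscle, fell by 0.96 (SE 0.18, adjusted p = 0.0025), with other sets of the gene from -0.54 to 0.32 that did not pass. The sodium-calcium exchanger Slc8a1 fell by 0.51 (adjusted p = 0.0162), with another set at 0.57 (adjusted p = 0.0808). Slc8a1 had an adjusted p of 0.155 with the covariate, 0.124 without the intensity trend and 0.0604 without B6C3F1 replicate 4. The calcium pump Atp2a2, its inhibitor Pln and the release channel Ryr2 gave 0.21, 0.15 and -0.28 and did not pass.

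Among the contractile genes the slow myosin heavy chain was lower in the hybrids. Myh7, the slow (beta) heavy chain, of which adult mouse ventricles hold little, read 10.38, 10.61, 10.68, 10.78 and 10.01 in B6C3F1, 11.87, 12.17, 11.62, 11.08 and 11.58 in C3H and 9.29, 9.40, 8.89, 9.10 and 9.32 in C57Bl/6. The ranges of the 3 groups did not overlap and the hybrids lay in the middle, 2.25-fold under C3H (difference -1.17, SE 0.17, adjusted p = 0.000107). Myh6, the main heavy chain of the adult mouse ventricle, gave 0.15 (adjusted p = 0.739). Of 21 sarcomere and Z-disc genes, Tnni3k was the 1 that passed (4.76%, against 3.27% of all genes). Of 18 fetal and stress genes 3 fell (16.7%, against 1.34% of all genes) and 0 rose: Myh7, the atrial light chain gene Myl4 (-0.78, adjusted p = 0.00259) and Fhl1 (-0.47, adjusted p = 0.0166). Fhl1 lost its call without B6C3F1 replicate 4 or C3H replicate 1 or 4 (adjusted p = 0.0505 to 0.0626 in limma's fit).

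The natriuretic peptide genes, markers of wall stress, did not pass. Nppb read 13.86, 14.25, 14.58, 14.74 and 14.49 in B6C3F1 and 13.42, 14.03, 11.94, 12.21 and 14.69 in C3H. The C3H hearts fell into 3 high and 2 low values, the groups overlapped, and the difference of 1.13 (SE 0.40) had an adjusted p of 0.181. Without C3H replicate 5, the highest of them, it was 0.0239, and 4 genes of the list then passed as higher. Nppa read 12.60, 12.02, 13.40, 13.06 and 13.92 in B6C3F1 and 13.49, 14.10, 12.46, 12.76 and 13.67 in C3H, with overlap (difference -0.30, SE 0.28, adjusted p = 0.757).

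Matrix gene levels differed widely among the C3H mice. Of 37 genes 2 rose, 3 fell and 32 did not pass (13.5% called, against 3.27% of all genes). The median of 0.36 lay above the 0.04 of all genes. Thbs4, a matricellular protein of stressed heart, read 7.65, 8.29, 8.34, 8.54 and 7.99 in B6C3F1 and 9.04, 9.43, 9.60, 9.55 and 9.38 in C3H, without overlap (difference -1.24, SE 0.18, adjusted p = 0.000131). Timp3, an inhibitor of metalloproteinases, fell by 0.97 (adjusted p = 0.00188) and the collagen-cleaving protease Ctsk fell by 0.83 (adjusted p = 0.00343), while the 3 other sets of Timp3 gave -0.46 to -0.27 and did not pass. The vascular and basement membrane collagens Col15a1 and Col4a1 rose by 1.09 (adjusted p = 0.00927) and 0.82 (adjusted p = 0.0232). Col4a1 lost its call without B6C3F1 replicate 3 or 5 or C3H replicate 1, 3 or 4 (adjusted p = 0.0624 to 0.0878 in limma's fit).

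Averaged over the matrix list, the hybrids lay 0.13 to 0.33 above the genes' means, while C3H replicates 1 to 5 lay at -0.31, 0.18, -0.07, -0.37 and 0.25. Replicates 2 and 5 of C3H were thus level with the hybrids and the other 3 below them. Col1a1, the main fibrillar collagen, read 8.76, 8.93, 8.84, 8.96 and 8.79 in B6C3F1 and 6.76, 7.85, 6.79, 7.17 and 9.19 in C3H, and its difference of 1.31 had an adjusted p of 0.0889. Without C3H replicate 5, 9 members rose, and with the poly-A covariate 0 did.

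The X-linked genes that passed stood near the C57Bl/6 level in the hybrids. Of 617 X-linked genes 21 passed (3.4%, against 3.29% of 17398 autosomal genes), 7 higher and 14 lower. Placing each of these on a line from the C3H mean at 0 to the C57Bl/6 mean at 1, the median hybrid lay at 1.07 for the X-linked genes and at 0.81 for the 572 autosomal ones. All these genes were chosen for passing between B6C3F1 and C3H, which by itself sets the hybrid away from 0 in both classes. The median absolute difference from C57Bl/6 was 0.27 for the X-linked genes and 0.3 for the autosomal ones. The placing describes means that share the C3H arrays, and was not tested. Of the 21 X-linked genes 2, Ap1s2 and Sh3bgrl, also passed between B6C3F1 and C57Bl/6, as did 110 of the 572.

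Fam122b, an inhibitor of protein phosphatase 2A, read 8.20, 8.37, 7.83, 7.81 and 8.24 in B6C3F1, 10.44, 10.15, 10.20, 10.00 and 9.87 in C3H and 8.29, 7.54, 7.19, 8.35 and 7.93 in C57Bl/6. Hybrids and C57Bl/6 overlapped and C3H lay above both, with a difference of -2.04 (SE 0.19, adjusted p = 2.44e-07). Chm, which encodes an escort protein for Rab GTPases, read 9.97, 9.97, 10.19, 9.94 and 9.96 in B6C3F1, 11.41, 11.59, 11.51, 11.33 and 11.44 in C3H and 9.92, 9.69, 9.68, 10.05 and 9.91 in C57Bl/6. It had the smallest spread of these genes, with C3H again apart (-1.45, SE 0.10, adjusted p = 6.33e-10), and its other set gave -1.08 (adjusted p = 2.02e-07).

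Cldn34c1, a claudin family gene, was the largest X-linked rise. It read 7.79, 7.70, 7.85, 7.34 and 7.60 in B6C3F1, 6.22, 6.13, 5.53, 4.69 and 4.58 in C3H and 7.96, 7.89, 7.56, 8.48 and 7.74 in C57Bl/6. The C3H values were low and scattered, and below all others (2.23, SE 0.31, adjusted p = 7.8e-05), and a further set gave 0.64 and did not pass. Rtl3, derived from a retrotransposon, fell by 1.82 (adjusted p = 0.00626) and Septin6, a cytoskeletal GTPase, fell by 1.05 (adjusted p = 0.00974). The Rtl3 means were 7.293 in B6C3F1, 9.116 in C3H and 6.215 in C57Bl/6. Its hybrid mean thus lay between the parents, 1.08 above C57Bl/6 (adjusted p = 0.171 in limma's fit). The 6 other probe sets of Septin6 did not pass.

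The 3 bright Y-linked genes stood near the C3H level in the hybrids. Eif2s3y, a translation initiation factor, read 12.54, 12.33, 12.44, 12.40 and 12.55 in B6C3F1, 12.55, 12.45, 12.51, 12.57 and 12.40 in C3H and 11.54, 11.27, 11.61, 11.38 and 11.55 in C57Bl/6. The first 2 groups overlapped, with a difference of -0.04 (SE 0.09, adjusted p = 0.909), and C57Bl/6 lay below both. Kdm5d, a histone demethylase, had means of 9.08 ± 0.19, 9.03 ± 0.12 and 7.96 ± 0.22, and Uty of 9.17 ± 0.15, 9.00 ± 0.26 and 8.17 ± 0.31 (SD, n = 5 each, same order). Against C3H neither passed, and against C57Bl/6 the hybrids were higher by 0.98, 1.12 and 1.00 in the 3 genes (adjusted p = 1.86e-07, 2.68e-05 and 0.000706). Zfy2 and Usp9y were dim on all arrays and did not pass.

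**Figure D5:**
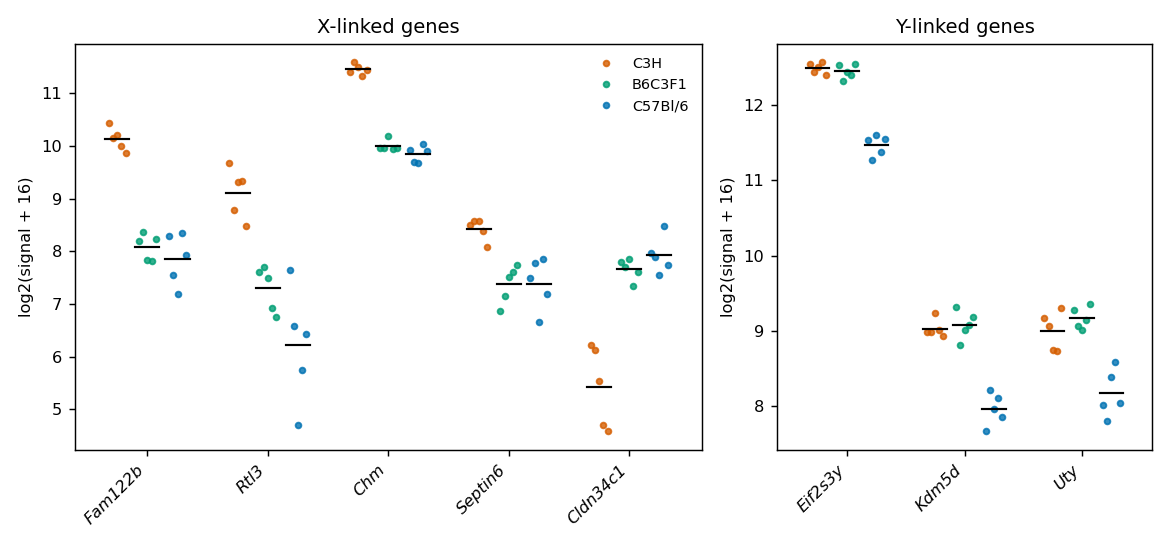
Level of the 5 X-linked genes with the largest passing difference (left) and of 3 Y-linked genes (right), in log2(signal + 16); points are arrays, 5 a strain, bars are group means. B6C3F1 (green) overlaps C57Bl/6 (blue) and lies apart from C3H (orange) in each X-linked gene, and overlaps C3H in each Y-linked gene, where C57Bl/6 lies lower.

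Most lists of markers of the other cell types of the apex held no call. Of 16 endothelial genes 3 rose (18.8%, against 1.93% of all genes), and these were singled out after their values were seen. They were the apelin receptor Aplnr (1.65, adjusted p = 0.00177), the cell cycle regulator Rgcc (1.63, adjusted p = 0.000157) and the junction protein Cdh5 (0.70, adjusted p = 0.00707). Pecam1, Kdr, Tek and Flt1 gave -0.01, 0.15, 0.15 and -0.23 and did not pass. The summed endothelial level was 14.57 to 14.89 in B6C3F1 and 14.36 to 14.63 in C3H, with overlap. In bulk tissue, fewer cells of a type and less RNA per cell cannot be told apart.

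Of 12 macrophage genes 2 rose (16.7%, against 1.93% of all genes), Cx3cr1 (1.27, adjusted p = 0.0461) and Csf1r (0.50, adjusted p = 0.0473). The summed macrophage level was 14.28 to 14.40 in B6C3F1 and 13.74 to 14.44 in C3H. The part of macrophage content in the class II genes was not tested. Of 11 smooth muscle and pericyte genes 1 rose (9.09%, against 1.93% of all genes), the pericyte gene Rgs5 by 0.36 (adjusted p = 0.0404). This list had a median of -0.12, with 3 of its 11 members above 0. None of the cardiomyocyte (10), fibroblast (11), skeletal muscle (11), lymphocyte (9), Schwann and nerve (8), adipocyte (8), red cell (5) or mesothelium and epicardium (8) markers on the array passed in limma's fit. Before adjustment 2 fibroblast and 2 adipocyte genes had a p under 0.05, as did 1 each of the cardiomyocyte, skeletal muscle, lymphocyte and mesothelium lists and 0 of the nerve and red cell lists. The share of all genes with such a p was not counted here. Of the 9 lymphocyte genes 8 lay under the median of all probe sets. Of the 10 atrial markers on the array 1 was higher (Kcnj3), 1 was lower (Myl4) and 8 did not pass. The median of this list was -0.21.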

How the data were processed

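Heart apex RNA of 15 male mice, 5 each of B6C3F1, C3H and C57Bl/6, was read on 1 array a mouse. The values the authors deposited are log2 signals made with MAS5 (per the submitters' processing notes), the Affymetrix algorithm that turns the probes of a set into 1 value. No version is given in the sources used here. That the values are log2 and scaled is seen in the values alone: taken back to linear signals, their 2% trimmed mean was 500.26 to 500.28 on every array. Arrays have no read depth, so that their number limits the precision, and no detection call was used.

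Of 45096 probe sets, 64 controls were left out. Symbols came from GEO's platform annotation: 34940 sets had 1 symbol, 932 several and 9160 none, and 34736 matched the GRCm38.p6 gene table without a changed symbol. To each linear signal 16 was added before log2 was taken again. A linear model with moderated variances (lmFit and trended eBayes of limma 3.58.1, R 4.3.3) was fitted to all 45032 sets and 15 arrays, with Benjamini-Hochberg adjustment over all sets and a threshold of 0.05. A gene was its set of highest mean over the 15 arrays. Of 18190 genes, 1640 rest on sets ending in _x_at or _s_at, which can match several transcripts. Sets ending in _a_at, left out with these in an alternative, are not in that number. Array measures were tested with an exact permutation test (scipy 1.17.1). The procedure was tested on simulated data.

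Named were the 10 largest rises and falls among genes that passed, whose arrays did not overlap and whose higher mean was above the median of all sets, up to 5 passing members of each of 20 gene lists and up to 5 passing X-linked genes. Myh6, Myh7, Nppa, Nppb, Tnni3k, Nnt, H2-Ea, Dbp and Arntl were always named, other passing list members without further statistics, and members that did not pass as values only. The comparison, the lists and the tests were chosen with earlier results of these data known. Alternatives covered the pseudocount, filters on dim sets, normalization, probe set choice, the trend, covariates, array weights, the replicate number as a block and leaving out each array. The replicate numbers did not pair the samples: deviations of same-numbered B6C3F1 and C3H arrays correlated at -0.06 to 0.04.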

Additional observations from a re-analysis of the deposited data

Results flagged for a closer look

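In 8 of 136 groups of 5 arrays examined, one for each named gene and strain, 1 array lay far from the other 4; chance alone flags about 1 in 20 groups. Values are log2(signal + 16).

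Among the hybrids, replicate 5 read 11.61 for Efhd2, above the other 4 at 11.29 to 11.37. Replicate 3 read 6.24 for Tbx3, below the others at 6.98 to 7.10, and 10.19 for Chm, above the others at 9.94 to 9.97. Replicate 1 read 11.17 for Slc8a1, above the others at 10.64 to 10.78. Among the C3H mice, replicate 5 read 4.71 for Gm26782, below the others at 5.53 to 5.77, and 10.41 for Srebf1, below the others at 11.41 to 11.69. Replicate 4 read 13.35 for Slc25a29, above the others at 12.36 to 12.62, and 5.68 for H2-DMa, below the others at 6.84 to 7.15. In Efhd2, Gm26782, Slc25a29 and Chm the groups did not overlap with these arrays included. In all of these but Chm the choice of genes required it.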

How the results depend on the processing

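The number of probe sets that passed, 1069 of 45032, was 544 without the intensity trend and 613 with poly-A control signal as covariate. It was 617 with that covariate and without C3H replicate 4, an alternative chosen after the data were seen. The number of genes, 594, was 273, 326 and 323 under these 3. With the brightest set of each gene as the only one tested, 683 of 18190 sets passed, so that the gene count rose from 594 to 683. Leaving out 1 array gave 810 to 1447 probe sets and 441 to 816 genes, both highest without C3H replicate 5. Leaving out C3H replicates 4 and 5 together, also added later, gave 1040 and 570. Other settings stayed within 1.5 times of the main counts.

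With the replicate number as a block, 1121 probe sets and 629 genes passed. The numbers are shared by name alone, and none of the 5 correlated best with its own number. Under the block 8 matrix genes were higher instead of 2.

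Of 63 named genes that passed, 33 did so under all 33 alternatives, and 195 of 2232 pairs of gene and alternative lost the call. The alternatives with the highest numbers of losses were the poly-A covariate (17 genes, or 19 without C3H replicate 4) and no intensity trend (18). The 1 reversal was Pttg1, at -0.12 (adjusted p = 0.953) without probe sets ending in _x_at, _s_at or _a_at.

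With 5 arrays a group the median SE of 0.23 limits what can be seen, dim genes most. Differences in sequence between strains under the probes were not tested, and no genome sequence was read besides the promoter windows.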

Other observations

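Genes outside the lists also differed by at least 2-fold, and those named here were chosen after their values were seen. In B6C3F1 hearts Copz2, a coat protein of transport vesicles, was higher by 2.62 (adjusted p = 1.31e-12), Mettl14, a subunit of the RNA m6A methyltransferase, by 2.38 (8.02e-09), and Cyfip2, a regulator of actin assembly, by 2.11 (1.52e-11). Il15, a cytokine that sustains natural killer and memory T cells, read a mean of 10.60 in B6C3F1 against 8.52 in C3H and 11.32 in C57Bl/6 (difference 2.08, adjusted p = 8.75e-10). Sspn, a member of the dystrophin complex, read 13.38 against 11.57 and 14.15 (difference 1.81, adjusted p = 1.52e-11). In both genes the hybrids and C3H did not overlap. Prkag2, a regulatory subunit of AMP-activated kinase, was higher by 1.12 (adjusted p = 0.000965) and Thrsp, a regulator of lipid synthesis, by 1.65 (adjusted p = 1.46e-07).

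Among the genes lower in B6C3F1, Lgals3, a lectin of activated macrophages, differed by -1.52 (adjusted p = 0.000244), the chemokine Ccl2 by -1.16 (0.00842) and the acute phase gene Saa3 by -1.68 (0.0122), with overlapping arrays in Saa3. Neat1, a nuclear RNA that builds paraspeckles, read 10.57 in B6C3F1 against 11.90 in C3H and 11.78 in C57Bl/6, below both parents (-1.33 against C3H, adjusted p = 0.000218). Baiap2l1 read 11.80, 13.03 and 8.62 in the same order, with the hybrids between the parents (-1.23, adjusted p = 4.73e-06), and Pdxdc1 read 10.80, 11.90 and 5.06 (-1.10, adjusted p = 9.19e-05). The adjusted p-values are those of limma's fit over all probe sets.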
